A study of Mus musculus with 150 samples.

Results

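Large neural adhesion and guidance genes on mouse chromosome 16 were followed by replication timing. The 6 genes Lsamp, Gap43, Alcam, Robo1, Robo2 and Ncam2 were chosen by name and by fixed intervals, out of 679 protein-coding genes of the chromosome in the RefSeq annotation. Each gene score is the mean of the replication timing score over the positions in its interval. The score has 1 value every 5 kb, and a higher score means earlier replication: in all 123 columns used, the mean of 10 early control genes lay above the mean of the 6 genes.

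Cells were pulsed with BrdU and separated by DNA content, and the BrdU-containing DNA of the early and the late S-phase fraction was sequenced (Repli-seq). The main set was 43 mouse embryonic stem cell (mESC) clones of the cas/129 hybrid background, in 26 genotypes and 50 profiles. Hybrid cells let the svim (129) and cast alleles be scored apart. Every one of these clones carries a CRISPR deletion or inversion in or near the Dppa domain of chromosome 16, so no unedited cas/129 clone entered. Which allele is edited is not labelled. The other profiles were 1 titled NPC (neural progenitor cells) from clone C3 of the 100kdel genotype, 3 edited v6.5 clones scored on C57BL and svim, and 15 non-hybrid profiles, of which 14 were edited and 1 was unedited 46C; 2 of the 15 are libraries of 45kinv with no clone named. Hybrid cells grew in DMEM with 2i and LIF, and 46C in GMEM with FBS and LIF. Each clone is 1 edited line, so the spread over clones holds clone and genotype together. The title alone marks the NPC profile, since its cell type label reads mESC. At the stem cell domain, early in pluripotent cells, it was late: Morc1 scored -4.16 on svim and -3.98 on cast against 2.57 and 3.05 in mESC clone C3. Dppa4 and Dppa2, in the same domain, scored -3.61 and -3.58 on cast in NPC and 3.08 and 3.12 in C3. On svim neither gene had a score in C3 or NPC, which both carry the 100kdel edit at chr16:48235966-48336426. Olig1, a gene of neural progenitors, scored 2.77 on svim in NPC, above the highest mESC clone at 2.42, and 2.07 on cast, inside the mESC range that reached 2.25. Olig2 scored 2.62 on svim, above the highest clone at 2.41, and 2.02 on cast, inside the range. Sim2 was above all clones on cast only, at 3.96, and at 2.89 on svim lay under its mESC median of 3.06, and Hes1 was inside the range on both alleles, at 4.11 and 4.09.

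Early replication goes with open, transcribed chromatin in most cell types, and late replication with gene-poor chromatin near the nuclear lamina. Long neural genes often lie in late domains in stem cells, and many domains switch timing when stem cells become neural cells. The 6 genes act at neuronal surfaces and growth cones. Lsamp, Alcam and Ncam2 are cell adhesion molecules of the immunoglobulin superfamily, Robo1 and Robo2 are receptors for Slit guidance proteins, and Gap43 is a growth cone phosphoprotein rather than an adhesion molecule.

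The genes lie along the chromosome (mm10, annotation GRCm38.p6) in this order. Lsamp (gene ID 268890) spans chr16:39984254-42181679, 2197 kb. Gap43 (gene ID 14432) follows at chr16:42248552-42340651. Alcam (gene ID 11658) lies at chr16:52248996-52453081 and Robo1 (gene ID 19876) at chr16:72027518-73047491. Robo2 (gene ID 268902) is at chr16:73891976-75447443 and Ncam2 (gene ID 17968) at chr16:81200697-81624290. The intervals that define the scores cover 98.8% of annotated Lsamp but only 37.3% of Robo1 and 32.8% of Robo2, so for the Robo genes the score stands for the part shared by the shorter transcripts. The intervals held from 19 positions in Gap43 to 435 in Lsamp. None overlaps an edit: Alcam is the nearest to the edited region of chromosome 16, at 3.55 Mb, Gap43 lies 5.37 Mb and Ncam2 32.5 Mb from it.

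RefSeq promoter sequences were matched for 5 of the 6 genes, 8 starts in all, and the 250 bases before the start are shown for the 4 starts around which NPC lay outside the range of all mESC clones on both alleles. The middle Robo2 start, inside that range, is shown for comparison. CG dinucleotides are in capitals, searched as the letters CG, which read the same on both strands. The 3 Robo2 starts, from the innermost to the outermost, lie on the minus strand at chr16:74411826-74412075, chr16:75092771-75093020 and chr16:75447294-75447543. The Lsamp outer start lies on the plus strand at chr16:39984114-39984363 and the Ncam2 start at chr16:81200447-81200696, also plus.
Robo2 innermost start: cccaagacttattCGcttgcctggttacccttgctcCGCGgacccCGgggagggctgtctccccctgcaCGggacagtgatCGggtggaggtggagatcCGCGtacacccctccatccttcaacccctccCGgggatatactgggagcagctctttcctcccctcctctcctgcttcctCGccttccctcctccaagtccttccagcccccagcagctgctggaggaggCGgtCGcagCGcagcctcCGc
Robo2 middle start: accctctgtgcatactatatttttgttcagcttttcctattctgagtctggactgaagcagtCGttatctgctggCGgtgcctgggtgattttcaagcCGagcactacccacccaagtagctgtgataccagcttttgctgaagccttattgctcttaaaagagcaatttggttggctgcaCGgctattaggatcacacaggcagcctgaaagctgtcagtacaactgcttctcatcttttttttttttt
Robo2 outermost start: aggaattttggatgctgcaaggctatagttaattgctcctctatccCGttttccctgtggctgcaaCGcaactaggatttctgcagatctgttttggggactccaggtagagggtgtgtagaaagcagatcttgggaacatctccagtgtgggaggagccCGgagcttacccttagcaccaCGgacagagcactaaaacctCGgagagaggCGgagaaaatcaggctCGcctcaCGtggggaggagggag
Lsamp outer start: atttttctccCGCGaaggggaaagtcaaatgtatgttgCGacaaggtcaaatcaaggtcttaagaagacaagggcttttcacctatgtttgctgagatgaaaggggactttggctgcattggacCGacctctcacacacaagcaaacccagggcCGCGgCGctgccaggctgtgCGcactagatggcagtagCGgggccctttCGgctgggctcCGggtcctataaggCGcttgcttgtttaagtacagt
Ncam2 start: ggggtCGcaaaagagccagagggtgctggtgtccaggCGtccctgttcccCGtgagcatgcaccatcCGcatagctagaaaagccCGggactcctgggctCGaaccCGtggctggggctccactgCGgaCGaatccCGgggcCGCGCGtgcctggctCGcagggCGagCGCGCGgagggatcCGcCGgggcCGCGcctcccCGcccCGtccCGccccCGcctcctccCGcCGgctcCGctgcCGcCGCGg
The Ncam2 promoter held 32 CG dinucleotides, the innermost Robo2 promoter 14, the middle one 4, the outermost one 8 and the outer Lsamp promoter 12. Across 32851 mouse promoters of the same length the median was 6, and 95.4% had fewer than Ncam2. The share with fewer was 70.6% for the innermost Robo2 start, 37.8% for the middle one, 57% for the outermost one and 66.5% for the outer Lsamp start. These counts describe the sequence and were not tested against timing.

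In mESC all 6 genes replicated later than the median gene of the chromosome, whose score was 2.20 on svim and 2.23 on cast. For 5 of them the mean score was below 0 on both alleles, and for Gap43 on cast only. Alcam was the latest, with a score of -3.07 ± 0.28 on svim and -3.22 ± 0.31 on cast (SD, n = 43 clones). Robo2 followed at -2.59 ± 0.28 and -2.72 ± 0.28, and Ncam2 at -2.27 ± 0.33 and -2.17 ± 0.36. Lsamp scored -1.73 ± 0.23 and -1.85 ± 0.28. Robo1 was earlier, at -0.64 ± 0.50 and -0.52 ± 0.52. Gap43 scored 0.07 ± 0.64 on svim against -1.29 ± 0.57 on cast.

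Steps between neighbours in the order of the means were tested within clones, by a two-sided sign-flip permutation test with Benjamini-Hochberg adjustment over 10 pairs. On svim the order from early to late was Gap43, Robo1, Lsamp, Ncam2, Robo2 and Alcam, and on cast Robo1 came before Gap43 with the rest unchanged. All 10 neighbouring pairs differed, with adjusted permutation p-values of 1.25e-05 or 2e-05. The smallest p this number of resamples can give is 1e-05. The order came from the means of the same clones. These p-values therefore describe each step against its spread over clones and give no separate support for the order. The narrowest steps were Lsamp over Ncam2 on cast, 0.31, in order in 33 of 43 clones, and Ncam2 over Robo2 on svim, 0.32, in order in 38 of 43. The place of Robo1 rests on its interval. Over the whole annotated gene its step over Lsamp on svim shrank from 1.09 to 0.09 (adjusted permutation p = 0.16), and its step over Gap43 on cast turned from 0.77 to -0.17 (adjusted permutation p = 0.154).

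Single clones ranged widely for Gap43 and Robo1 and narrowly for the late genes. Gap43 on svim ran from -1.54 in abc.del clone E2 through a median of 0.14 to 1.48 in c.del clone C9. Robo1 on cast ran from -1.58 in 28.5kinv clone B7 through -0.40 to 0.70 in 435kinv clone C5. Lsamp on svim stayed between -2.18 and -1.20, with a median of -1.75. Among 7 clones with 2 libraries each, the SD between repeat libraries was 0.49 for Robo1 on cast and 0.31 for Lsamp on svim, close to or above the SD over clones. For Ncam2 on cast it was 0.08, well under that over clones.

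**Figure D1:**
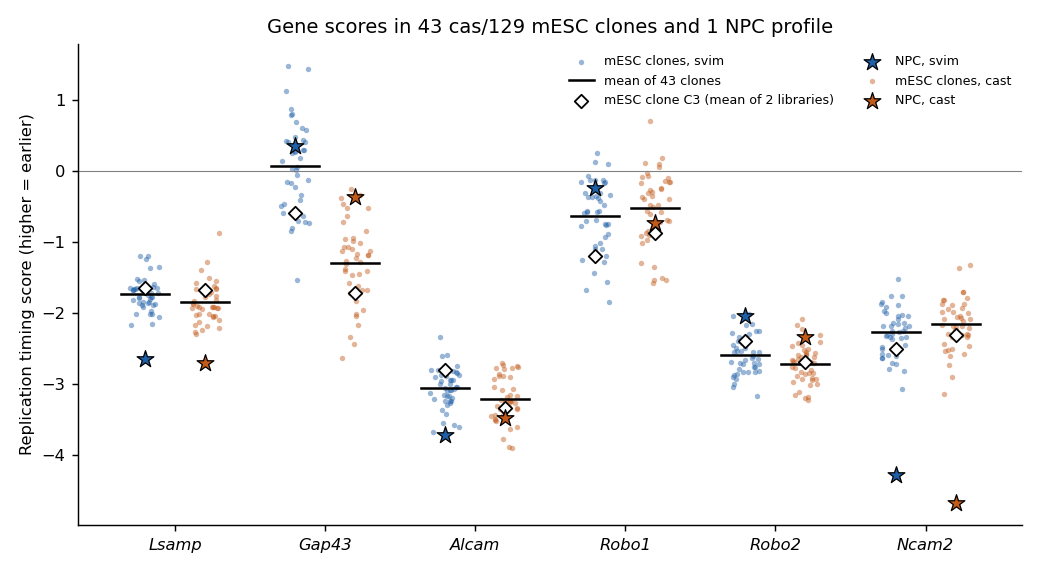
Replication timing score of each gene (vertical axis, higher is earlier) on svim (blue) and cast (orange); each point is 1 of 43 cas/129 mESC clones, bars are means, diamonds are clone C3 and stars the NPC profile. Ncam2 in NPC lies at -4.29 and -4.68, under every mESC clone. Gap43 has the widest gap between its svim and cast means, 0.07 and -1.29, though the ranges of its clones overlap.

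Neural progenitors were compared with the stem cells they came from through clone C3, the mean of its 2 mESC libraries, and through the range of all 43 clones. With 1 NPC profile there is no test. Ncam2 replicated far later in NPC. It scored -2.45 and -2.57 on svim in the 2 C3 libraries and -4.29 in NPC, a difference of -1.78. On cast it went from -2.25 and -2.38 to -4.68, a difference of -2.37. The NPC value lay 1.21 below the latest mESC clone on svim and 1.53 below it on cast. Ncam2 stayed later than every clone on both alleles under each of the 5 other ways of scaling or averaging. Positions with a value in every column and the annotated gene body gave almost the same scores, -4.29 on svim in both, so they add little. Quantile normalization shrank the differences to -0.50 and -0.89. On svim NPC then scored -3.02 against -3.00 in the latest clone, a narrow margin.

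Lsamp was also later in NPC on both alleles, by less. On svim the C3 libraries scored -1.66 and -1.63 and NPC -2.65. On cast they scored -1.91 and -1.46, and NPC -2.71. The differences from C3 were -1.01 and -1.02. Repeat libraries of a single mESC clone differed at Lsamp by up to 0.98 on svim and 0.81 on cast. NPC lay 0.48 and 0.41 below the latest clone. That call ended when columns were centred on their own median, rescaled or quantile normalized, while the difference from C3 kept its sign.

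Alcam was later than all clones on svim only, by a margin of 0.03. It scored -2.88 and -2.73 in C3 and -3.72 in NPC on svim, against -3.72 and -2.97 in C3 and -3.48 in NPC on cast. On cast 8 of 43 clones were later than NPC. Under quantile normalization Alcam turned earlier, with differences of 0.11 on svim and 0.72 on cast, so no direction holds for it.

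Gap43 scored higher in NPC than in C3 but inside the range of the clones. On svim the C3 libraries were at -0.18 and -1.01 and NPC at 0.35, and on cast at -1.42 and -2.02 with NPC at -0.37. On cast 41 of 43 clones were later than NPC, and on svim 29. Against the mean of all clones the differences were 0.28 and 0.93, compared with 0.94 and 1.35 against C3. Under quantile normalization Gap43 on cast was earlier than all clones, at 1.97 from C3.

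The Robo receptors stayed inside the mESC range over their intervals. Robo1 scored -0.68 and -1.72 on svim in the C3 libraries and -0.24 in NPC, so its difference ran from 0.44 to 1.48 with the library used. On cast it scored -0.32 and -1.44 in C3 and -0.73 in NPC, between its 2 libraries. Robo2 was 0.36 and 0.35 above C3, with 42 of 43 clones on svim and 39 of 43 on cast later than NPC. Under quantile normalization NPC was earlier than all clones at Robo2 on both alleles, at 0.53 and 0.72 from C3, and at Robo1 on svim.

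Over all 676 genes with values, the NPC profile was later than all clones for 35.5% on svim and 36.5% on cast, and earlier for 6.95% and 8.28%. On both alleles 32.4% were later and 4.59% earlier. The 6 genes gave 2 later on both alleles and 0 earlier, a share near this background. Their median difference from C3 was -0.28 on svim and 0.01 on cast, against -0.55 and -0.37 over all genes. Ncam2 stood lower than most: 16.4% of genes on svim and 10.7% on cast had a more negative difference.

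Other long genes showed both directions, and the other adhesion genes called on both alleles were all later. Of 14 other neural adhesion and guidance genes, 4 were later in NPC on both alleles and 0 earlier. The 4 were Epha6, an ephrin receptor, at -1.55 and -1.51 from C3 on svim and cast, Cadm2, a synaptic adhesion molecule, at -0.80 and -1.12, Chodl at -1.74 and -2.78, and Jam2, a junction protein, at -4.65 and -4.52. Of 31 other genes longer than 200 kb, 6 were later on both alleles and 3 earlier. The 3 largest differences among these were in Prkdc, a DNA repair kinase, at -4.35 and -4.27, Spidr at -3.19 and -3.41, and Trp63, a transcription factor of epithelia, at 2.77 and 3.13. Over all genes 32.4% were later on both alleles and 4.59% earlier. Whether either list differs from this background was not tested.

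Means over long genes hid gradients, and Robo2 was the clearest case. Around its innermost start (within 10 kb) Robo2 scored -3.11 ± 0.30 on svim and -2.98 ± 0.41 on cast in mESC (SD, n = 43), and -0.46 and -1.07 in NPC. It was therefore 2.51 and 1.88 above clone C3 there, earlier than every mESC clone on both alleles. Around its outermost start it went the other way. NPC scored -4.42 and -4.22 there against -3.28 and -3.43 in C3, later than every clone on both alleles. The middle start stayed inside the range, at -3.57 and -3.07 in NPC.

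With the annotated gene cut into 5 equal segments from its left end, the earlier stretch of Robo2 covered segments 2 and 3. In segment 2 NPC scored -0.99 and -1.40, against -2.77 and -2.86 in C3. In segment 3 it scored -1.23 and -1.40, against -2.92 and -2.45, and both segments were earlier than all clones on both alleles. The highest NPC score within the gene was at position 74470000 on svim, -0.29, and 74515000 on cast, -0.84. The mESC mean on svim was lowest in nearly the same place, at 74480000. This did not hold on cast, where the mESC mean was lowest at 75375000 and highest at 74645000. Neighbouring positions are smoothed, with a median step of 0.016 between them in the NPC columns, so the stretch is 1 feature and not many.

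Within 10 kb of 1072 RefSeq starts of the chromosome, 7.18% were earlier in NPC than all clones on both alleles and 25.2% later. Of 130 genes with at least 2 such starts, Robo2 was the 1 gene with a start of each kind, a count made after its values were seen. Earlier timing at the innermost start held after centring, at 2.42 and 1.96 from C3, and after quantile normalization, at 2.92 and 1.97. The call of later timing at the outermost start was lost under both, and under quantile normalization the difference turned to 0.22 and 0.50.

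Lsamp was later in NPC toward its outer start and not at its other end. In segment 1 of 5 equal segments of its interval NPC scored -3.20 and -3.03 against -1.24 and -1.15 in C3. In segment 2 it scored -2.72 and -2.93 against -1.19 and -1.50, and in segment 3 -2.89 and -2.76 against -1.58 and -1.83. These 3 segments were later than every clone on both alleles, as were the 500 kb before the gene. In segment 5 NPC scored -1.80 and -2.10, inside the mESC range. At the outer start the difference from C3 was -2.40 and -1.85, and around the inner start it was -0.44 and -0.71, inside the range. After centring and after quantile normalization the outer start stayed later than all clones on svim, at -2.49 and -1.38 from C3, and fell inside the range on cast, at -1.77 and -1.29.

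Ncam2 was later along its whole length. Over its 5 segments the differences from C3 ran from -1.31 to -2.18 on svim and from -1.91 to -2.90 on cast. All 5 segments, and the 500 kb on each side, lay below every mESC clone on both alleles with the scores as deposited. Around the start, the call was lost on svim after centring and after quantile normalization, which left a difference of -0.25, and held on cast under both. In mESC the gene held a shallow maximum of -2.05 on svim and -1.80 on cast in its inner part, and in NPC no position scored above -3.99 on svim or -4.63 on cast.

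**Figure D2:**
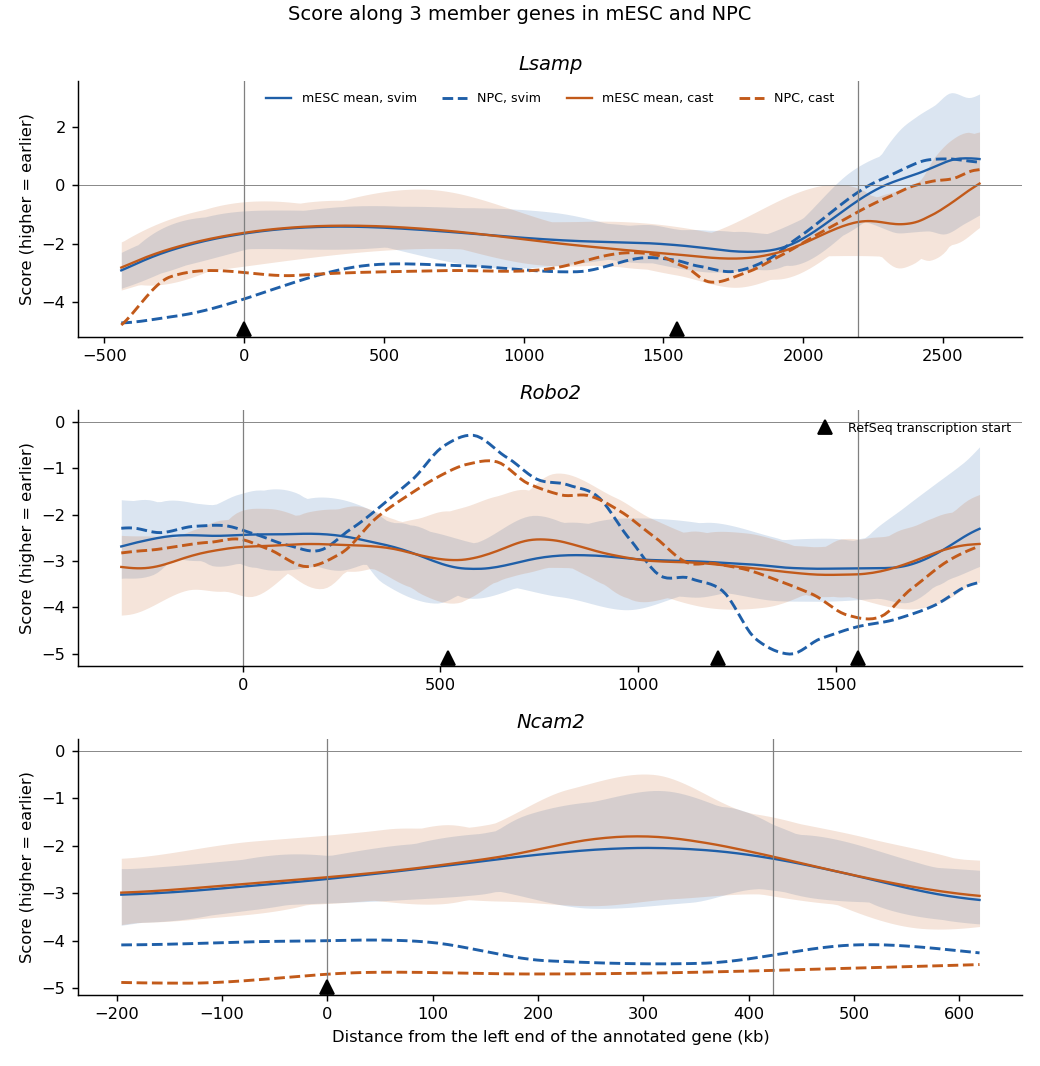
Replication timing score (higher is earlier) along Lsamp, Robo2 and Ncam2 by distance in kb from the left end of the annotated gene; solid lines are means of 43 mESC clones, shading their range, dashed lines the NPC profile, grey verticals the gene ends and triangles RefSeq starts. Robo2 in NPC peaks at -0.29 on svim and -0.84 on cast, at 74470000 and 74515000, to the right of its innermost start at 74411825. Ncam2 lies below the mESC range throughout.

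Robo1 also shifted along its length, mostly within the range of clones. Over segments 2, 3 and 4 of 5 of the annotated gene NPC was 1.61, 1.76 and 1.55 above C3 on svim. On cast these differences were 0.80, 0.99 and 0.57. In segments 1 and 5 they were 0.25 and 0.38 on svim, and -0.34 and -0.29 on cast. In segment 2 NPC scored -1.34 on svim, earlier than all clones, and -2.11 on cast, inside the range. Segments 3 and 4 were inside the range on both alleles. Its one matched start scored 0.36 and -0.03 in NPC, inside the range on both alleles. In segment 5 of its interval NPC was at -0.62 and -1.21 against -0.46 and -0.28 in C3. Alcam was flat, with a spread of 0.06 to 0.08 between its highest and lowest mESC mean.

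The alleles of the same clone were then compared. The svim minus cast difference of each gene was tested over the 43 clones with limma, adjusted over 676 genes. All clones have the same hybrid background, so the SE and p-values describe repeatability over clones of that background. Every clone also carries an edit, and which allele is edited is not labelled. With no unedited hybrid clone, the strain of an allele could not be separated from its edit. Whether the edits add to the svim minus cast differences was therefore not tested. Whether the alleles of these strains differ in the same way in other crosses was not tested. Gap43 had by far the largest difference of the 6 genes, 1.36 ± 0.07 (SE) earlier on svim (limma adjusted p = 6.73e-23). All 43 clones had svim earlier, from 0.21 in 680kinv clone B10 through a median of 1.42 to 2.39 in 680kinv clone 80. By size this was the 4th of 676 genes. In NPC Gap43 was also earlier on svim, by 0.72, inside the range of the clones.

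The other 5 genes had differences of 0.15 or less in size, which passed the same test. Alcam was 0.15 ± 0.04 earlier on svim (limma adjusted p = 0.00321, 31 of 43 clones). Robo2 was 0.13 ± 0.03 earlier on svim (limma adjusted p = 0.000809, 35 of 43 clones), and Lsamp 0.12 ± 0.04 (limma adjusted p = 0.00947, 34 of 43 clones). Robo1 was earlier on cast, at -0.12 ± 0.04 (limma adjusted p = 0.00509, 33 of 43 clones), and so was Ncam2, at -0.11 ± 0.03 (limma adjusted p = 0.00239, 33 of 43 clones). Over all genes 27.7% were called earlier on svim and 21% on cast, and the median size was 0.11 over all genes against 0.13 for the 6. The small differences are thus common on this chromosome. Robo1 and Ncam2 lost their call after centring (limma adjusted p = 0.184 and 0.233), and over its whole annotated gene Robo2 differed by -0.0026 (limma adjusted p = 0.966). With genotype means as units Lsamp missed the threshold (limma adjusted p = 0.0586).

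**Figure D3:**
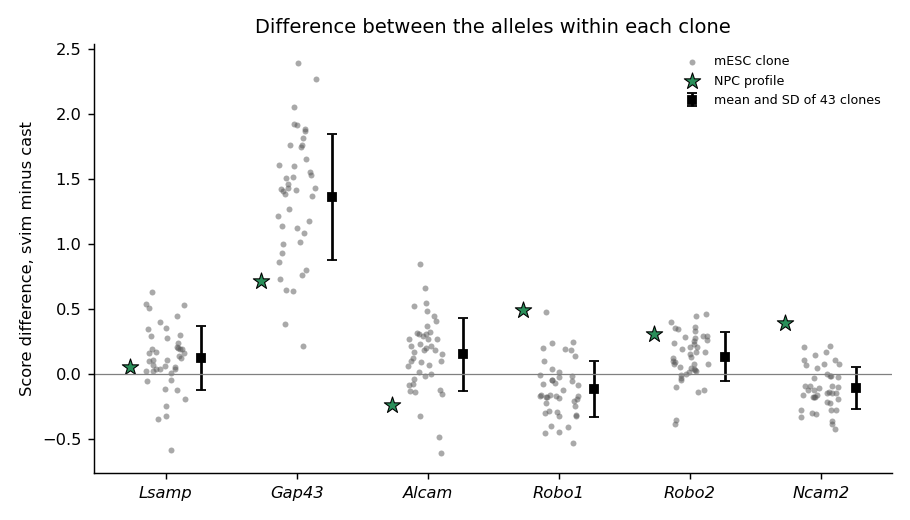
Score difference between the alleles, svim minus cast, within each cas/129 mESC clone (grey points, n = 43), with the mean and SD (squares) and the NPC profile (stars). All Gap43 clones lie above 0, from 0.21 to 2.39, and for Robo1 and Ncam2 the NPC value of 0.49 and 0.39 lies above every clone.

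The Gap43 difference was not limited to the gene. The mean svim minus cast difference stayed above 1 from 42235000 to 42590000, 355 kb that hold Gap43 and no other whole or part protein-coding gene. It stayed above 0.5 from 42125000 to 42660000, which reaches into the end of Lsamp. It peaked at 1.64 at position 42395000, 55 kb past the right end of the Gap43 interval, where svim averaged 0.41 and cast -1.23. Clones there ran from 0.64 to 2.76. In NPC the difference at the same position was 0.75. The cast allele was flat across Gap43, between -1.33 and -1.24 in the mean of clones, while svim climbed from -0.12 to 0.23.

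**Figure D4:**
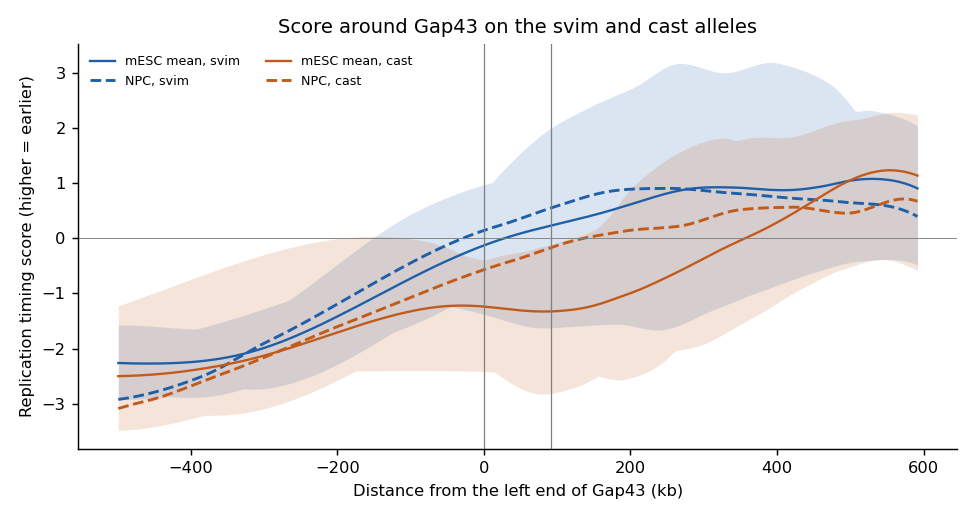
Replication timing score (higher is earlier) around Gap43 by distance in kb from its left end, with grey lines at the gene ends; solid lines are means of 43 mESC clones on svim (blue) and cast (orange), shading their range and dashed lines the NPC profile. The svim line lies above the cast line across the gene. The gap is widest, 1.64, at 55 kb past the right end of the gene, where the NPC lines lie closer, 0.75 apart.

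The NPC allele difference was set against the clones for each gene. For Robo1 it was 0.49, just above the highest clone at 0.48, although the mESC mean was negative. For Ncam2 it was 0.39, above the highest clone at 0.21, so in NPC svim was the earlier allele where cast was in most stem cell clones. Over all genes the NPC difference was above every clone for 3.11% and below every clone for 5.33%. Lsamp, Gap43, Alcam and Robo2 were inside.

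Differences between the 26 genotypes were tested on each allele with a limma F test over 676 genes. Many genotypes have 1 clone, so the spread within genotypes comes from the others and the test can miss differences. A gene that does not pass is therefore not shown to be unchanged by the edits. None of the 6 genes passed on either allele. The nearest was Robo1 on cast (unadjusted p = 0.00517, limma adjusted p = 0.346), where genotype means ran from -1.58 in 28.5kinv to 0.70 in 435kinv, each 1 clone. Robo1 on svim had a limma adjusted p of 0.505. Over all genes 0.888% passed on svim, the 6 genes Morc1, Trat1, Retnlb, Retnla, Retnlg and Dzip3, and 0% on cast, where limma gave 67 genes at an unadjusted p under 0.05. On svim 68 did. Leaving out 1 of the 2 bc.del clones raised the counts to 26 and 29 on svim and to 8 and 16 on cast, and no member passed with any 1 clone left out, the smallest limma adjusted p being 0.0646 for Robo1 on cast.

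The genes varied together across clones to different degrees. Lsamp and Alcam had a Pearson r of 0.73 over 43 clones (mean of alleles), Lsamp and Robo2 0.67, Robo2 and Ncam2 0.65, and Gap43 and Alcam -0.27. These points share libraries and column scaling, so they are descriptions. Among genes over 5 Mb away, the nearest in pattern were Cldn1 and Tmem207 for Lsamp (0.73 and 0.71) and for Alcam (0.84 and 0.81). They were Epha3 and Map3k7cl for Robo2 (0.80 and 0.74), Adamts5 and Trp63 for Robo1 (0.61 and 0.58) and Samsn1 and N6amt1 for Ncam2 (0.60 and 0.55). Gap43 had none above 0.49, with Tmem45a and Cldnd1 at 0.49 and 0.48. The svim and cast scores of a gene correlated across clones at 0.91 for Robo1 and 0.55 for Lsamp.

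Non-hybrid mESC were later at Lsamp than every cas/129 clone. The 15 non-hybrid profiles ran from -3.61 through a median of -3.17 to -2.58, with unedited 46C at -2.94. The cas/129 clones, as means of their alleles, ran from -2.21 to -1.03. The groups did not overlap. All 15 were later than all 43 clones in 0.444% of genes and earlier in 0.74%, so this gap was uncommon, and Lsamp was the 1 member with it. With the 45kinv libraries averaged, an alternative added after the data were seen, the numbers of such genes were the same and Lsamp still did not overlap. It ended after centring on column medians, where the clones ran from -3.27 to -1.31 and 0 of 676 genes kept such a gap in the later direction. Column medians ran from -2.17 to -0.29 in cas/129 mESC and lay at -1.85 in every non-hybrid column. Background, medium and column scaling cannot be told apart here.

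The other genes overlapped between the backgrounds. Gap43 in 46C scored -1.30, with the non-hybrid profiles between -2.84 and -0.94 and the cas/129 clones between -1.85 and 0.57. Robo1 in 46C scored -1.23 and ran from -2.46 to -0.89 over the 15. Robo2 and Ncam2 in 46C scored -3.12 and -2.67, and Alcam -3.11. In 46C segment 5 of the Lsamp interval scored -3.77, later than segment 1 at -2.74. In the cas/129 clones segment 5 averaged -1.75 on svim and -2.01 on cast, also later than segment 1 at -1.46 and -1.44.

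**Figure D5:**
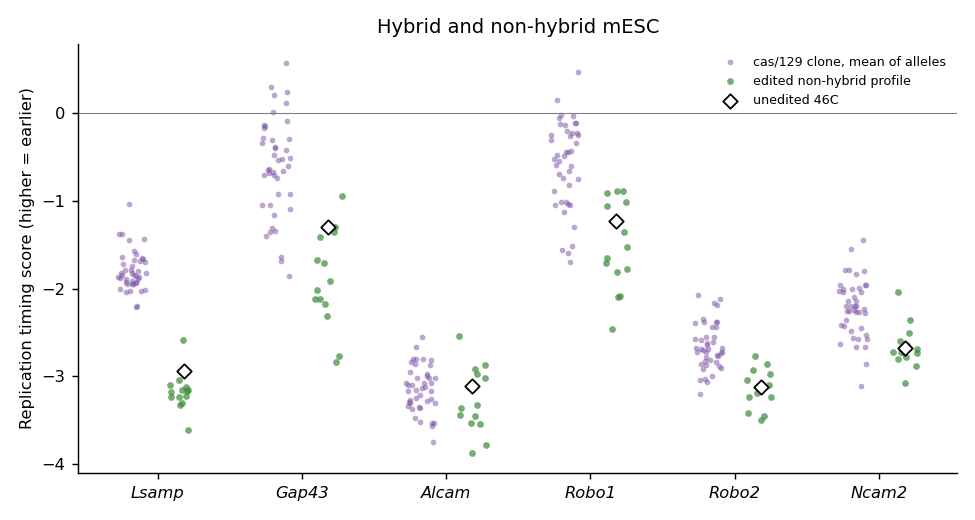
Replication timing score (higher is earlier) in 43 cas/129 mESC clones (purple, mean of both alleles), 14 edited non-hybrid profiles (green) and unedited 46C (diamonds). For Lsamp the groups do not overlap, with non-hybrid profiles at or below -2.58 and clones at or above -2.21, and for the other 5 genes they do.

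Among the 3 v6.5 clones, C6 and H5 carried extreme values at Alcam and Ncam2. On svim Alcam scored 4.02 in 100kdel clone C6 and 3.95 in 18kdel clone H5, and Ncam2 scored -10.4 and -10.2 in the same clones. In C6 the C57BL allele scored -2.70 at Alcam and -3.09 at Ncam2, near 46C. In H5 C57BL was at 6.54 and -6.81. Clone A4 of 435kinv lay between, at -0.98 on svim and -2.22 on C57BL for Alcam. Gap43 on C57BL scored -1.44 in C6, -4.50 in H5 and 2.12 in A4. On svim it scored -0.63, 0.01 and -0.14, so in A4 svim was the later allele. The H5 columns correlated with the mean cas/129 profile at 0.40 on svim and 0.65 on C57BL along the chromosome, against 0.78 to 0.86 in the other v6.5 columns and at least 0.92 in the cas/129 clones. The part of this in the gene values was not tested. Lsamp and Robo2 were late in all 3 clones on both alleles, between -3.64 and -2.31 and between -3.42 and -2.55.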

How the data were processed

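Repli-seq of early and late S-phase fractions was deposited as a replication timing score per 5 kb position and allele. Per the submitters' processing notes, the authors aligned reads to mm10 and used Bowtie2, SAMtools and bedtools. The smoothing and the log base of the score are not stated in these sources. Every column had an interquartile range of 4.60, so columns were scaled before deposit, and differences are score units, not fold changes. Read depth is unknown, so precision comes from the spread over clones. The table has 6 more value columns whose names fit no sample given, and these were not used here. The members, the gene lists and the tests were chosen with earlier results of these data known.

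Gene scores are means over the interval of each member and, for other genes, over the annotated body with 2.5 kb on each side. Repeat libraries of a hybrid clone were averaged; the non-hybrid profiles are given singly. The allele difference (intercept only) and the genotype differences (F test over groups) used limma 3.58.1 in R 4.3.3 with eBayes, Benjamini-Hochberg adjustment over all genes and a threshold of 0.05. NPC values were compared with the range of clones, with no test. Sign-flip permutation tests used 100000 resamples. The procedure was tested on simulated data. Named genes were all members, the adhesion list genes outside the mESC range on both alleles, the 3 largest NPC differences among other genes over 200 kb, and the 2 genes over 5 Mb away most like each member. Alternatives were other scalings, other positions, annotated gene bodies and leaving out each clone. Scores around transcription starts were added after the data were seen.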

Additional observations from a re-analysis of the deposited data

How the results depend on the processing

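No paired analysis was possible across genotypes because the replicate numbers name clones of a genotype or repeat libraries of a clone, and nothing in the labels ties clones of different genotypes; the alleles were compared within clones. Quantile normalization of the cas/129 columns moved NPC differences to -0.63 on svim and -0.56 on cast for Lsamp, 1.84 and 1.97 for Gap43, 0.11 and 0.72 for Alcam, 1.49 on svim for Robo1, 0.72 on cast for Robo2, and -0.50 and -0.89 for Ncam2. The members later in NPC then numbered 1 on each allele and those earlier 3 on each (Alcam and Robo2 on both, Robo1 on svim, Gap43 on cast), and all genes later numbered 116 and 134 and earlier 94 and 107. Around the outermost Robo2 start it turned the difference to 0.22 on svim and 0.50 on cast. Centring, or rescaling on the chromosome outside 47 to 50 Mb, left 1 member later on each allele, Ncam2, and centring left 0 members apart between non-hybrid and cas/129 cells. Calling differences over 1 from C3 gave 1 member earlier on cast. Against the mean of all clones Gap43 on svim was 0.28 and Robo1 on svim 0.40. With 1 C3 library Robo1 ran from 0.44 to 1.48 on svim and from -0.41 to 0.71 on cast, and Alcam on cast from -0.50 to 0.24. The allele difference lost its call for Robo1 after centring (-0.061) and rescaling (-0.074), for Ncam2 after centring (-0.050), rescaling (-0.051) and quantile normalization (-0.080), and for Lsamp with genotype means (0.10). It turned to -0.0026 for Robo2 over the annotated gene. No allele call of a member was lost when any 1 clone was left out. Genes differing between genotypes numbered 11 on svim under quantile normalization, and ran from 5 to 29 on svim and from 0 to 16 on cast with 1 clone left out. Over annotated genes the step of Robo1 over Lsamp on svim was 0.095, and that over Gap43 on cast -0.17. The cause of these changes was not tested.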
